A study of Mus musculus with 10 samples.

Results

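The 10 genes described are transcription factors and markers of the epithelial-mesenchymal transition (EMT): Zeb1, Zeb2, Snai1, Snai2, Twist1, Twist2, Cdh1, Cdh2, Vim and Fn1. They were chosen by name, and all 10 were found among the 27151 genes of the deposited table. All 10 also passed the filter on low values, as did 17088 genes in all. The RNA was that of tongues of mice (C57BL/6J) that had been exposed to 4NQO, a chemical carcinogen that induces oral lesions. Of the 10 libraries, 6 came from mice given SP2509, an inhibitor of the histone demethylase LSD1 (gene Kdm1a), and 4 from mice given vehicle, and the 4NQO exposure was common to both groups. In the titles the treated libraries are called SP2509h, with an h that is not explained. Dose, duration, age and sex are not stated in the sources used here. Nor is it stated whether any mouse gave more than 1 library, so p-values reflect only the library-to-library spread, part of which may be technical.

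EMT is the programme by which epithelial cells give up cell-cell adhesion and take on the shape, motility and gene expression of mesenchymal cells. The zinc finger factors ZEB1, ZEB2, SNAI1 (Snail) and SNAI2 (Slug) and the basic helix-loop-helix factors TWIST1 and TWIST2 drive it, and the ZEB and SNAI factors repress Cdh1, the gene of E-cadherin, through E-box motifs in its regulatory DNA. The loss of E-cadherin with a gain of N-cadherin (Cdh2) is called the cadherin switch, and vimentin (Vim) and fibronectin (Fn1) are the classical mesenchymal products that accompany it. In whole tongue these genes are also used outside any transition, since fibroblasts, endothelium and other stromal cells express Zeb1, Zeb2, Twist1, Vim and Fn1. LSD1 takes part in the repression because it is recruited by the SNAG domain at the start of the SNAI proteins.

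The SNAG domain is encoded by the first codons of each Snai gene. These bases are shown because they are the shared feature that ties the SNAI factors to the enzyme that SP2509 inhibits. The first 30 coding bases, from GENCODE M21 transcripts, lie at chr2:167538290-167538319 (plus strand) for Snai1, chr16:14705974-14706003 (plus strand) for Snai2 and chr8:122460585-122460614 (minus strand) for Snai3, all on GRCm38. Capitals mark the 23 bases that are the same in all 3 genes.
Snai1: ATGCCGCGCTCCTTCCTGGTcAggAagCcg
Snai2: ATGCCGCGCTCCTTCCTGGTcAagAaaCat
Snai3: ATGCCGCGCTCCTTCCTGGTgAaaAcgCac
Snai2 had the same base as Snai1 at 26 of 30 positions and Snai3 at 24 of 30.

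The ZEB genes are held down in epithelial cells by the miR-200 family of microRNAs, and ZEB factors in turn repress the miR-200 genes. The 5 mature sequences, from RefSeq (GRCm38.p6), are shown because they fall into 2 groups by seed, which is given in capitals (bases 2 to 8).
mmu-miR-200b-3p: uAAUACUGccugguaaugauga
mmu-miR-200c-3p: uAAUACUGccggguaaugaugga
mmu-miR-429-3p: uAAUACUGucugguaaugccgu
mmu-miR-200a-3p: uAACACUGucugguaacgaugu
mmu-miR-141-3p: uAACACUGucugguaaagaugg
The seed match is CAGTATT for the first 3 and CAGTGTT for the other 2. In the 3′ UTRs of GENCODE M21 transcripts, read on the coding strand, Zeb1 held 9 matches (5 CAGTATT and 4 CAGTGTT) and Zeb2 also held 9, again 5 and 4. Of 20913 genes with a 3′ UTR, 25.7% held at least 1 match and 3 held 9 or more. Among the other 8 genes Snai2 and Fn1 held 2 each, Snai1 held 1, and Twist1, Twist2, Cdh1, Cdh2 and Vim held none. The first 3 matches of Zeb2 lie at chr2:44988350-44988379, chr2:44988166-44988195 and chr2:44988101-44988130 (GRCm38, minus strand), and capitals mark the seed match.
Zeb2 match 1: tgcaaaaattttgtaCAGTGTTaaggccta
Zeb2 match 2: cgcactaccatacatCAGTATTttattatt
Zeb2 match 3: cgcactacagtgcatCAGTATTacgattcc
These matches are a description of the transcripts. The levels of the microRNAs themselves were not analysed here.

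The E-box bound by ZEB and SNAI factors was searched as CACCTG or CAGGTG, which are each other's reverse complement, in the 300 bases around gene starts (250 before and 50 after, RefSeq, GRCm38.p6). Of 27025 genes in that table, 22.6% held at least 1 match. Promoters of Zeb2, Snai1, Twist1, Twist2 and Vim were in the table, and only that of Snai1 held a match; those of Zeb1, Snai2, Cdh1, Cdh2 and Fn1 were not in it. Of 22 epithelial junction and polarity genes 16 were in the table, and 13 of the 16 (81.3%) held a match. Snai1 (chr2:167537945-167538244), Epcam (chr17:87635729-87636028) and Crb3 (chr17:57061951-57062250), all on the plus strand, are shown, Snai1 as the 1 match among the EMT genes and the others as junction genes with 2 and 4 matches. Capitals mark the E-box.
Snai1 promoter: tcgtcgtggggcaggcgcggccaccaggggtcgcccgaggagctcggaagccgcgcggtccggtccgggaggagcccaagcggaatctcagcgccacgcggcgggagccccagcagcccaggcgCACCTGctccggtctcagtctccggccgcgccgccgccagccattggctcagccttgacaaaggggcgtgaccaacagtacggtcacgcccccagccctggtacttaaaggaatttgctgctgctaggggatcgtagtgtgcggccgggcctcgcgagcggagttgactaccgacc
Epcam promoter: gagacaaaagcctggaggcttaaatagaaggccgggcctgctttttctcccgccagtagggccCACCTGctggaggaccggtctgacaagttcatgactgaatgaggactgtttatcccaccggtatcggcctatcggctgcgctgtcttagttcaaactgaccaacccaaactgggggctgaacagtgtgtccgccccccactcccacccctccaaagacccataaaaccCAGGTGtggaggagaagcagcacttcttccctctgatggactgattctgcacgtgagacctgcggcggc
Crb3 promoter: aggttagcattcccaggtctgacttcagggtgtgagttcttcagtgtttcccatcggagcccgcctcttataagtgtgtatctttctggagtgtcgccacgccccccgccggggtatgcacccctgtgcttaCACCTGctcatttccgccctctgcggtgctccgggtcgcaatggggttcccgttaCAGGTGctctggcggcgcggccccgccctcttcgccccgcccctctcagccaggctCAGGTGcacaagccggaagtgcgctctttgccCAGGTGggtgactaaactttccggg
No binding was measured, and a match says only that these letters stand in the window.

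The libraries differed in ways that touch the EMT genes. Whole reads summed to between 15748571 and 19375555 per SP2509 library and between 9180844 and 14768955 per vehicle library, and mitochondrial genes took 23.98% to 32.2% of the reads in SP2509 and 35.3% to 52.1% in vehicle. SP2509 replicates 1 and 2, and replicates 4 and 5, resembled each other far more closely than other libraries did: among genes with 1000 to 5000 reads their spread was 3.49 and 3.72 times the Poisson expectation, and at least 11.1 times in every other pair of one group. Means and SDs are therefore given over 4 SP2509 units, with each close pair averaged, and 4 vehicle libraries, while the test is on the 10 libraries. SP2509 replicate 3 was kept as its own unit, though it came next in closeness. Its spread with replicates 1 and 2 was 11.1 and 12.8 times the Poisson expectation, against 22.99 or more in the remaining pairs of one group. SP2509 replicate 6 stood apart, with the lowest summed keratinocyte markers of the 10 libraries (50352 normalised reads, against 121194 to 246386 in SP2509 replicates 1 to 5 and 82978 to 123162 in vehicle) and the highest skeletal muscle markers (764775, against 263029 to 353042 in SP2509 replicates 1 to 5 and 146248 to 318640 in vehicle). SP2509 replicates 4 and 5 held large amounts of lingual gland transcripts, and 1 vehicle library, replicate 1, had the fewest reads.

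SP2509 libraries were compared with vehicle libraries by limma on log2(normalised reads + 1), a scale that understates the change of low genes, with Benjamini-Hochberg adjustment over 17088 genes and a call at an adjusted p under 0.05. Of the 10 EMT genes, 1 was called lower (Zeb1) and 0 were called higher, while 9.1% of all tested genes were called (4.95% higher and 4.15% lower). The number called therefore does not set the 10 genes apart from the rest of the table. The calls over all genes were split into 846 higher and 709 lower, and the split was 666 higher and 1060 lower with quantile normalization and 1154 higher and 577 lower with TMM scaling without mitochondrial genes. With the close pairs merged no gene of the table was called (lowest limma adjusted p = 0.0718), although 3632 genes had an unadjusted p under 0.05. Without SP2509 replicate 6, Zeb1 and Zeb2 were called lower and Cdh1 was called higher, where 20.2% of all genes were called (11.5% higher and 8.71% lower). With the pairs merged as well, Zeb1 and Cdh1 were called, where 7.83% of all genes were.

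The number of EMT genes called moved with the fit, as did the number over all genes. It was 1 on the recovered reads with edgeR (8.97% of all genes called) and with DESeq2 (17.6%), 4 with library quality weights (24.3%), 2 with a replicate block (11.5%) and 0 without the intensity trend (5.3%). It was 0 without SP2509 replicates 4 and 5 (2.19%) and 0 without vehicle replicate 1 (1.63%).

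Zeb1 (ENSMUSG00000024238, chromosome 18, 5591860 to 5775467, GRCm38), a zinc finger repressor of epithelial genes, had 299 normalised reads in the lowest SP2509 library, a median of 362 and 531 in the highest, against 502, 613, 549 and 626 in the vehicle libraries. All SP2509 libraries except replicate 6 lay below every vehicle library, and replicate 6 lay between the vehicle libraries. Zeb1 averaged 399.9 ± 93.6 normalised reads in SP2509 and 573 ± 57.5 in vehicle (SD, n = 4 units and 4 libraries), which gave -0.58 ± 0.15 (SE) as the log2 fold change (limma adjusted p = 0.0359). The call was lost with the pairs merged (-0.54 ± 0.17, limma adjusted p = 0.122). It was also lost when any 1 of the other 9 libraries was left out (limma adjusted p = 0.0557 to 0.0844), and held without replicate 6 (-0.68 ± 0.12, limma adjusted p = 0.00326) and without it with the pairs merged (limma adjusted p = 0.0223).

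Zeb2 (chromosome 2, 44983632 to 45117395), the paralog of Zeb1, had 226, 297 and 522 normalised reads as its lowest, median and highest SP2509 value, against 365, 415, 428 and 473 in the vehicle libraries. The same 5 SP2509 libraries lay below every vehicle library, but replicate 6 lay above every vehicle library. The log2 fold change was -0.39 ± 0.20 over the 10 libraries (limma adjusted p = 0.215) and -0.53 ± 0.14 without replicate 6 (limma adjusted p = 0.0194). Without replicate 6 and with the pairs merged it was -0.47 ± 0.16 (limma adjusted p = 0.0847), and without replicates 4 and 5 it was -0.22 ± 0.19 (limma adjusted p = 0.510). Other annotated genes share 1.93% of the exon bases of Zeb1 and 3.3% of those of Zeb2.

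Snai1 (chromosome 2, 167538195 to 167542814), the factor known as Snail, was low. Its values in SP2509 ran from 13.1 normalised reads through a median of 49.1 to 97.7, against 61.2, 30.7, 69.0 and 87.1 in vehicle. The groups overlapped, and the values rest on 389 reads over the 6 SP2509 libraries and 199 over the 4 vehicle libraries. The log2 fold change was -0.38 ± 0.46 (limma adjusted p = 0.628), within the spread between libraries. Single libraries moved it, to -0.045 without SP2509 replicate 3, -0.61 without SP2509 replicate 6 and -0.68 without vehicle replicate 2.

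Snai2 (chromosome 16, 14705852 to 14709385), known as Slug and also a gene of normal basal keratinocytes, had 209 normalised reads in SP2509 replicate 6, the lowest, with a median of 488 and a highest value of 649 in that group. The vehicle libraries had 493, 482, 239 and 435. Vehicle replicate 3 and SP2509 replicate 6 were both low, and the groups overlapped (log2 fold change 0.18 ± 0.31, limma adjusted p = 0.738). It was -0.059 without vehicle replicate 3 and 0.40 without SP2509 replicate 6. Snai2 and the keratinocyte markers were lowest in the same library of each group. Per 1000 summed keratinocyte marker reads, Snai2 stood at 2.47 to 4.15 in SP2509 and 2.88 to 4.47 in vehicle.

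Twist1 (chromosome 12, 33957671 to 33959829), a factor of mesenchymal and craniofacial development, had 63.7, 98.4 and 127 normalised reads as its lowest, median and highest SP2509 value, against 115, 147, 144 and 109 in vehicle. SP2509 replicates 1 to 3 lay below every vehicle library, and the other 3 lay within the vehicle range. The log2 fold change was -0.45 ± 0.23 over the 10 libraries (limma adjusted p = 0.218) and -0.53 ± 0.22 without replicate 6 (limma adjusted p = 0.100), and neither passed the threshold. Twist2 (chromosome 1, 91801461 to 91848028) had 10.7 to 35.6 normalised reads in SP2509 and 12.3 to 33.8 in vehicle, and its log2 fold change was -0.09 ± 0.39 (limma adjusted p = 0.907). Leaving out 1 library gave values from -0.34 to 0.12, and leaving out SP2509 replicates 4 and 5 gave -0.35. It rests on 163 reads in SP2509 and 72 in vehicle, and 46.5% of its exon bases are shared with Gm29100 on the opposite strand. The sources used here do not say how strand was treated in the counting. Whether reads from the shared bases were kept apart, mixed or dropped is therefore not known.

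**Figure D1:**
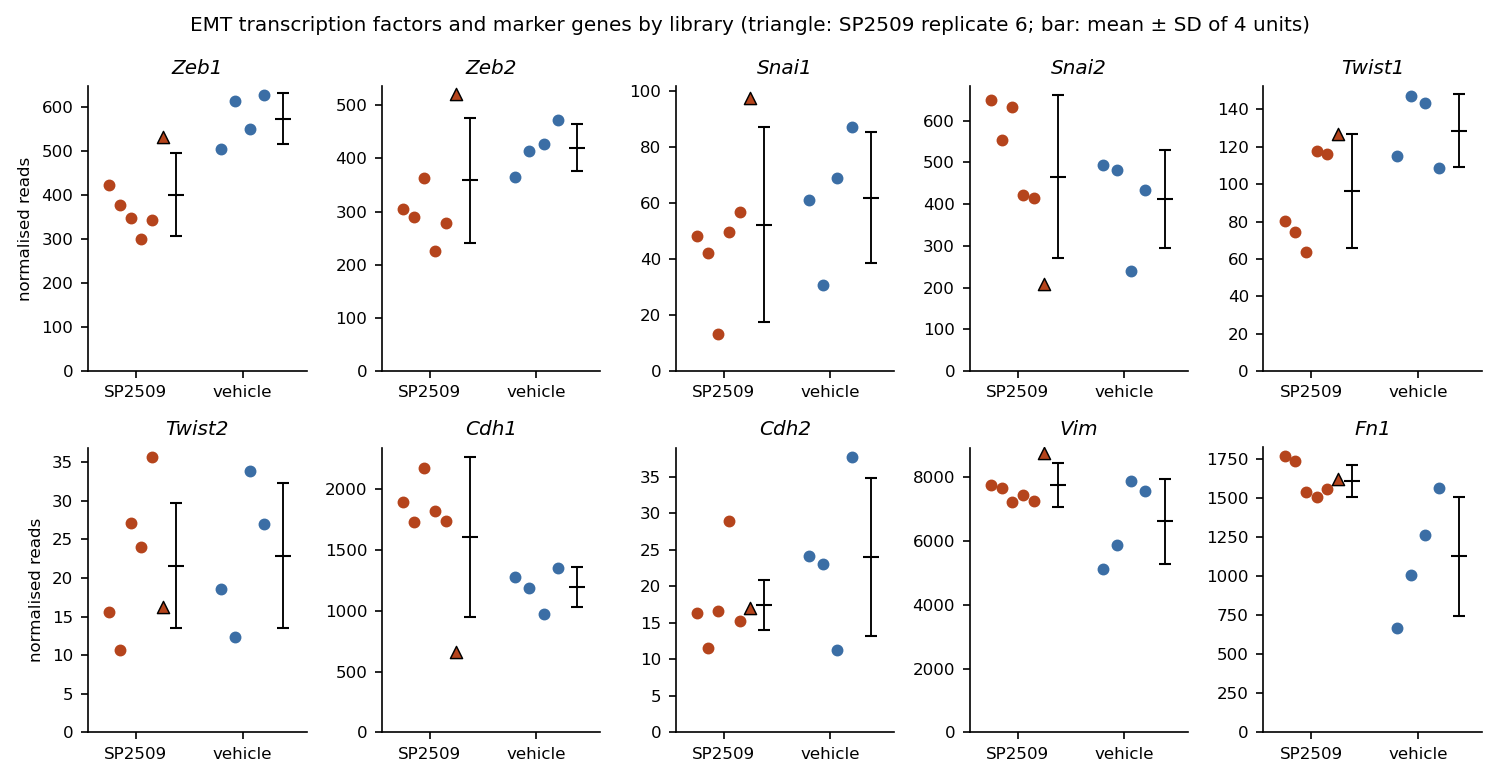
Normalised reads of the 10 EMT genes in each library (points; SP2509 on the left and vehicle on the right of each panel; the triangle is SP2509 replicate 6), with the mean and SD over 4 SP2509 units, with replicates 1 and 2 and replicates 4 and 5 averaged, and 4 vehicle libraries. For Zeb1, Zeb2 and Cdh1 the 5 other SP2509 libraries lie outside the vehicle range and replicate 6 does not follow them.

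The plot of values by library shows that none of the 10 genes separated the 6 SP2509 libraries from the 4 vehicle libraries, whereas 11.7% of all tested genes did. Without replicate 6 the groups did not overlap for 3 of the 10 genes, Cdh1 (higher) and Zeb1 and Zeb2 (lower), and for 20.4% of all tested genes.

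Cdh1 (ENSMUSG00000000303, chromosome 8, 106603351 to 106670246), the gene of E-cadherin, which holds epithelial cells together at adherens junctions, had 659 normalised reads in SP2509 replicate 6 and 1731 to 2172 in replicates 1 to 5 (median of the 6, 1778), against 1276, 1190.1, 969.9 and 1349.6 in vehicle. Replicate 6 was the lowest of the 10 libraries and the other 5 were above every vehicle library. Cdh1 averaged 1606 ± 655 normalised reads in SP2509 and 1196 ± 164 in vehicle (SD, n = 4 units and 4 libraries), and the log2 fold change of 0.40 ± 0.28 missed the threshold (limma adjusted p = 0.367). Without replicate 6 it was called higher, at 0.65 ± 0.11 (limma adjusted p = 0.00349) and, with the pairs merged as well, at 0.69 ± 0.14 (limma adjusted p = 0.0254).

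The summed keratinocyte markers were lowest in replicate 6, as Cdh1 was. Per 1000 summed keratinocyte marker reads, Cdh1 stood at 7.75 to 14.9 in SP2509, with replicate 6 at 13.1, and at 9.66 to 13.9 in vehicle, so on this scale the groups overlapped and replicate 6 lay among the others. On the same scale SP2509 replicates 1 to 3 lay below every vehicle library and replicates 4 and 5 above. All 8 keratinocyte markers had a positive log2 fold change (median 0.47) and 0 were called. In bulk tissue a different number of cells of a type and a different amount of RNA per cell cannot be told apart.

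Cdh2 (chromosome 18, 16588877 to 16809246), the gene of N-cadherin, was close to the limit of detection in every library. It had 11.5, 16.5 and 29.03 normalised reads as its lowest, median and highest SP2509 value, against 24.1, 23.0, 11.3 and 37.7 in vehicle. These values rest on 132 reads in the 6 SP2509 libraries and 78 in the 4 vehicle libraries, and the groups overlapped (log2 fold change -0.36 ± 0.37, limma adjusted p = 0.558). The value was -0.67 without vehicle replicate 3 and -0.12 without vehicle replicate 4. Per kilobase of exon, with all annotated exons of a gene joined, Cdh1 exceeded Cdh2 in every library, by 63.1 to 264 times.

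The balance of both cadherins was described per library as the log2 ratio of Cdh2 to Cdh1 per kilobase. It was -8.05, -7.66 and -6.09 as the lowest, median and highest SP2509 value, the last in replicate 6, against -6.54, -6.51, -7.25 and -5.98 in vehicle. The mean difference was -0.78 over the 10 libraries and -0.68 over the 8 units, and the groups overlapped with and without replicate 6. The log2 ratio of Zeb1 to Cdh1 per kilobase was -3.81 to -3.33 in SP2509 without replicate 6, -1.48 in replicate 6 and -2.51 to -1.99 in vehicle. The same 5 libraries thus had the lowest ratios of Zeb1 to Cdh1, and replicate 6, the lowest in keratinocyte markers, had the highest. The part of cell types in these ratios was not tested. These ratios join genes described above and carry no test.

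Vim (chromosome 2, 13573927 to 13582826), the intermediate filament of mesenchymal cells, was the most abundant of the 10 genes. It had 7224, 7534 and 8736 normalised reads as its lowest, median and highest SP2509 value, against 5121, 5864, 7875 and 7559 in vehicle. The SP2509 values lay close together, near those of vehicle replicates 3 and 4 and above those of vehicle replicates 1 and 2, and the groups overlapped (log2 fold change 0.23 ± 0.15, limma adjusted p = 0.339). The value was 0.12 without vehicle replicate 1, 0.065 with quantile normalization and 0.10 with library quality weights. Per 1000 summed fibroblast marker reads Vim stood at 472 to 668 in SP2509 and at 549 to 642 in vehicle. Per 1000 summed endothelial marker reads it stood at 973 to 1078 in SP2509 and 529 to 803 in vehicle, without overlap. Fn1 did not overlap on the endothelial scale either (187 to 233 in SP2509 and 69.3 to 148 in vehicle). On the fibroblast scale Fn1 overlapped (95.9 to 147 in SP2509 and 72.9 to 122 in vehicle). The share of all genes that separate on such scales was not computed, while 11.7% of tested genes did so on normalised reads.

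Fn1 (chromosome 1, 71585520 to 71653200), a matrix glycoprotein that cells bind through integrins, had the largest positive log2 fold change of the 10 genes over the 10 libraries. It had 1506, 1589 and 1769 normalised reads as its lowest, median and highest SP2509 value, against 671, 1006, 1263 and 1568 in vehicle. Vehicle replicate 4 lay within the SP2509 range and the other 3 vehicle libraries below it. Fn1 averaged 1611 ± 104 normalised reads in SP2509 and 1127 ± 381 in vehicle (SD, n = 4 units and 4 libraries), and the log2 fold change of 0.59 ± 0.19 missed the threshold (limma adjusted p = 0.0696). It was called higher, the 1 call among the 10 genes, when vehicle replicate 4 was left out (0.77, limma adjusted p = 0.0366, with 5.38% of all genes called), and without vehicle replicate 1 it was 0.36 ± 0.14 (limma adjusted p = 0.169).

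**Figure D2:**
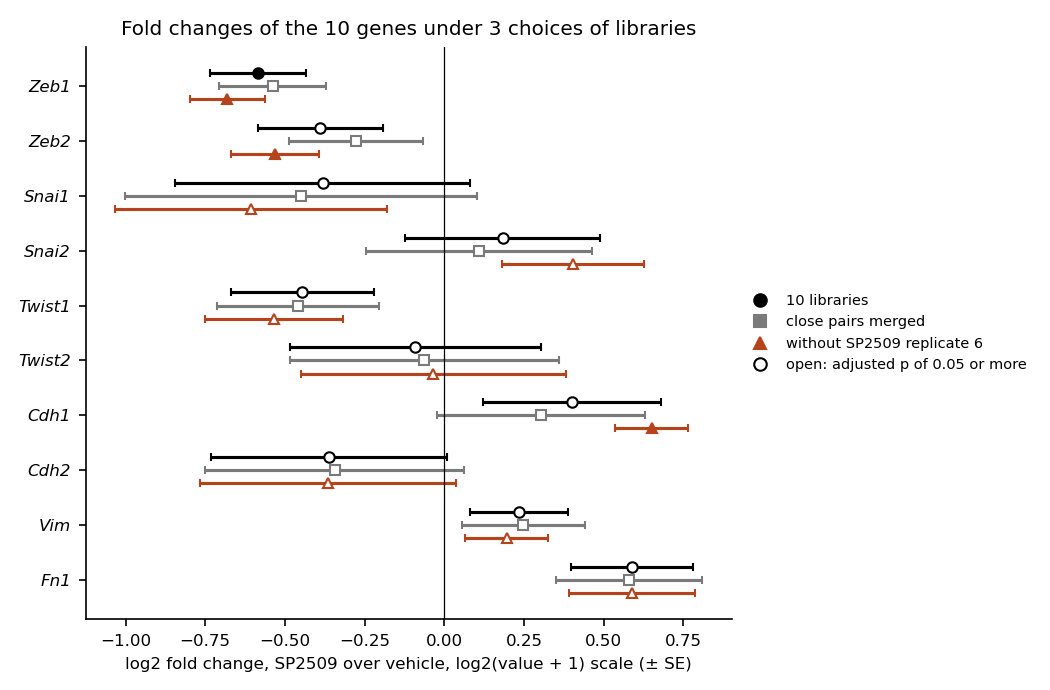
Log2 fold changes (SP2509 over vehicle, log2(value + 1) scale, bars ± SE) of the 10 EMT genes in limma fits on the 10 libraries (circles), with the close pairs merged (squares) and without SP2509 replicate 6 (triangles); filled symbols have an adjusted p under 0.05. Zeb1 is filled with 10 libraries, none is filled with the pairs merged, and Zeb1, Zeb2 and Cdh1 are filled without replicate 6.

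The plot of fold changes shows that 4 of the 10 genes had a positive value (Snai2, Cdh1, Vim and Fn1) and 6 a negative one (Zeb1, Zeb2, Snai1, Twist1, Twist2 and Cdh2). The median over the 10 genes was -0.23, beside 0.02 over all tested genes, and it moved with the fit. It was -0.031 with quantile normalization, -0.50 with library quality weights, and between -0.34 (without vehicle replicate 2) and -0.050 (without vehicle replicate 4) when 1 library was left out. Of the mesenchymal products, Vim and Fn1 lay on the side of Cdh1, the epithelial one, and Cdh2 on that of the ZEB factors. Among these genes only Zeb1 was called over the 10 libraries. As to the signs of the 10 genes, that of Twist2 turned in 5 of 24 alternatives and that of Snai2 in 1.

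Levels of different genes were compared per kilobase of exon, as means over the 8 units. The length used was that of all annotated exons of a gene joined, which need not be that of the transcript in use. The order below depends on it. Vim was the highest at 1513 normalised reads per kilobase, and Cdh1 (306), Snai2 (217) and Fn1 (117) followed. Twist1 (69.1), Zeb1 (47.4), Snai1 (35.3) and Zeb2 (19.5) were lower, and Twist2 (7.01) and Cdh2 (2.57) were the lowest. Among the transcription factors Snai2 thus had the highest level, and its lowest library (103) was above every library of the other 5 (up to 90.6). The ranges of neighbours in this order overlapped over the 10 libraries except between Vim (1079.8 to 1842) and Cdh1 (144 to 475) and between Zeb2 (11.4 to 26.2) and Twist2 (3.38 to 11.2).

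**Figure D3:**
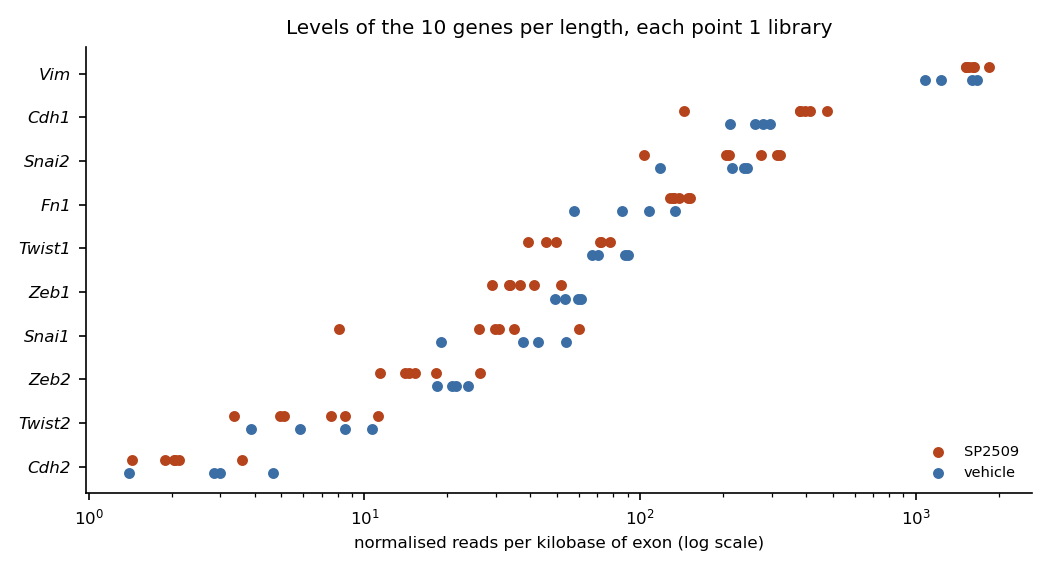
Normalised reads per kilobase of exon (log axis) of the 10 EMT genes, each point 1 library, with SP2509 drawn above vehicle in each row. Vim lies above all other genes, and Twist2 and Cdh2 lie lowest in vehicle. In SP2509 they also lie low, but Snai1 in replicate 3 (8.08) falls within the range of Twist2 (3.38 to 11.2).

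For Cdh1, Vim, Fn1 and Zeb1 the 3 tested genes with the most similar profile were found by the root mean square difference of centred log2 values over the 8 units, a description in which the points share their libraries. The closest to Cdh1 were Pum3 (0.10), Ovol1 (0.11) and Nectin1 (0.12), where the median over all genes was 0.64. Genes picked as the closest lie below that median by selection. Ovol1 is itself a factor of the epithelial state and Nectin1 is an adhesion molecule of adherens junctions. Closest to Vim were Mettl3 (0.06), Aplp2 (0.07) and Bcam (0.07), and closest to Fn1 were Cd248 (0.12), Cdc73 (0.12) and Aspn (0.13). Cd248, or endosialin, is a surface marker of stromal fibroblasts and pericytes, and Aspn is a small proteoglycan of the matrix. Closest to Zeb1 were Plekha6 (0.10), Kif13b (0.11) and Abcd3 (0.12).

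Markers of the cells that express the EMT genes were summed as well, and their part in the results was not tested. Summed fibroblast markers stood at 11826 to 15702 normalised reads in SP2509 and 9202 to 12883 in vehicle, with 0 of 8 markers called. Summed endothelial markers stood at 6699 to 8681 in SP2509 and 7306 to 10568 in vehicle, with 1 of 8 called lower (Egfl7). Summed Schwann cell and nerve markers stood at 5713 to 12537 in SP2509, the highest in replicate 6, and 10125 to 20744 in vehicle. All 8 of these had a negative log2 fold change. Summed macrophage markers stood at 1705 to 3280 in SP2509 and 1138 to 2276 in vehicle, with 1 of 8 called higher (C1qb). Muscle markers, all 8 positive, had 0 called. Over all tested genes 9.1% were called in the 10-library fit, and no gene was called with the close pairs merged. Adipocyte markers (4234 to 6461 in SP2509 and 3346 to 5970 in vehicle) and pericyte and smooth muscle markers (20998 to 50016 in SP2509 and 14079 to 23777 in vehicle) had 0 called, and lingual gland markers reached 293823 in SP2509 replicate 5 with the highest vehicle sum at 359. The keratinocyte, fibroblast, muscle, endothelial, Schwann cell and macrophage markers were detected in every library, while Adipoq, Plin1 and Lep of the adipocyte list and Muc5b, Bpifa2, Dcpp1, Dcpp2 and Prol1 of the gland list were at 0 in some.

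Zeb1 was set against these sums. Per 1000 summed fibroblast marker reads it stood at 19.0 to 40.7 in SP2509 and 44.8 to 57.4 in vehicle. On this scale the groups did not overlap, replicate 6 included. How many of all genes separate on it was not computed, while 11.7% of tested genes did so on normalised reads. Per 1000 endothelial marker reads Zeb1 stood at 42.4 to 61.2 in SP2509 and 51.9 to 83.9 in vehicle. Per 1000 Schwann cell and nerve marker reads Zeb1 stood at 38.5 to 57.0 in SP2509 and 29.5 to 54.3 in vehicle. On both scales the groups overlapped. Zeb2, which in the mouse also acts in Schwann cells, stood at 14.4 to 39.9 per 1000 fibroblast marker reads in SP2509 and 34.9 to 39.7 in vehicle. On that scale replicate 6 lay above every vehicle library and the other SP2509 libraries lay below (14.4 to 26.4). Twist1 stood there at 4.63 to 7.70 in SP2509 replicates 1 to 5, 9.72 in replicate 6 and 8.43 to 13.8 in vehicle. Per 1000 endothelial marker reads Zeb2 overlapped (32.1 to 60.1 in SP2509 and 37.7 to 56.7 in vehicle). Per 1000 Schwann cell and nerve marker reads Zeb2 stood at 34.3 to 46.4 in SP2509 and 19.99 to 42.3 in vehicle, with overlap.

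**Figure D4:**
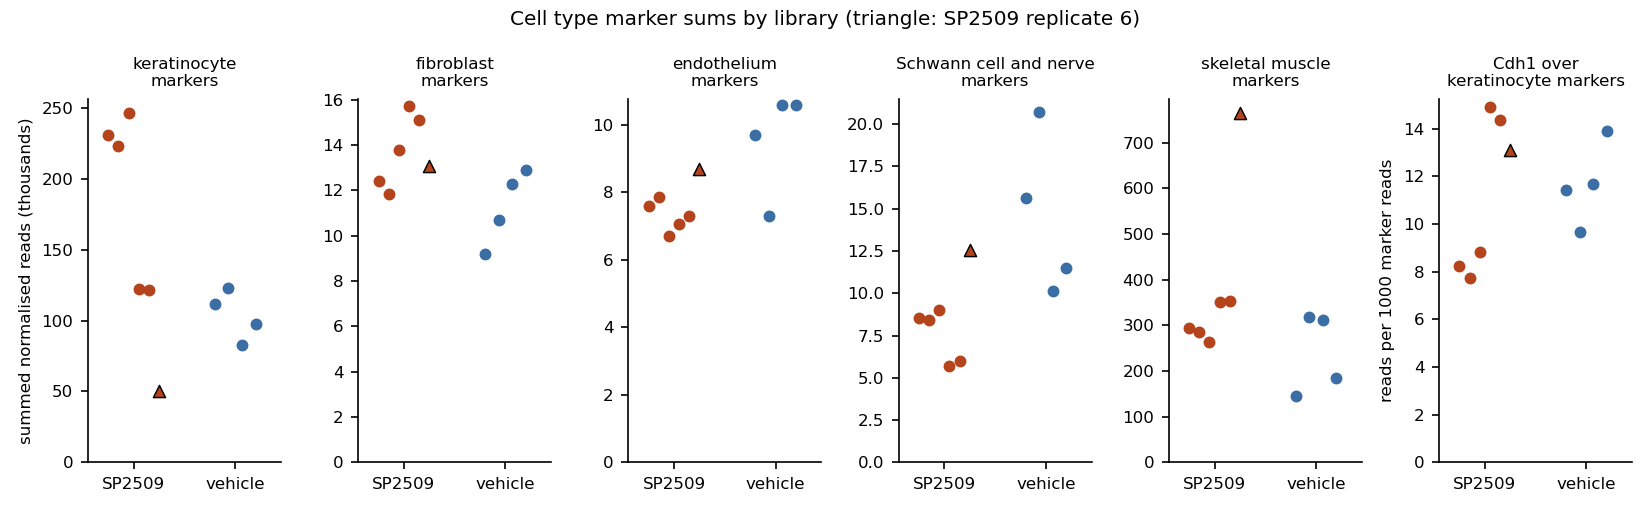
Summed normalised reads of 5 lists of 8 cell type markers in each library (in units of 1000, SP2509 left of vehicle, triangle SP2509 replicate 6) and, in the last panel, Cdh1 per 1000 summed keratinocyte marker reads. Replicate 6 has the lowest keratinocyte sum and the highest muscle sum, and in the last panel it lies among the other libraries.

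The plot of marker sums shows the least keratinocyte marker RNA in SP2509 replicate 6. By the values given above, that library also had the least Cdh1 and Snai2 and the highest SP2509 values of Zeb1, Zeb2, Snai1 and Twist1.

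Other genes of the programme were counted in 8 lists, and of their 106 tested genes 4 (3.77%) were called in the 10-library fit, Ctnnb1, Itgb1 and Tnc higher and Col3a1 lower, where 9.1% of all genes were called. With the pairs merged, without SP2509 replicates 4 and 5 or without vehicle replicate 1, none of the genes in the 8 lists was called. Without SP2509 replicate 6, 20 list genes (18.9%) were called, near the 20.2% of all genes in that fit, so these calls do not set the lists apart from the table. Those named below only for that reason were chosen after their values were seen. Cdh3 is in 2 of the lists and counted once.

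Of 12 other transcription factors that promote EMT, 0 were called in either direction, with a median log2 fold change of 0.08. Tcf12, which encodes an E-protein partner of TWIST factors, had 439, 527 and 627 normalised reads as its lowest, median and highest SP2509 value, against 352, 422, 394 and 437 in vehicle (0.40 ± 0.13, limma adjusted p = 0.0639). All 6 SP2509 libraries were above every vehicle library, the lowest of them only just. Klf8, a zinc finger repressor, had 23.99 to 39.1 in SP2509 and 35.3 to 60.5 in vehicle (-0.55 ± 0.24, limma adjusted p = 0.159). Without replicate 6, Tcf12 (0.43) and the AP-1 subunit gene Fosl1 (0.82) were called higher, at limma adjusted p-values of 0.0281 and 0.0373.

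Of 14 factors that maintain the epithelial state, 0 were called and 9 had a positive log2 fold change (median 0.15). Elf3, an epithelial ETS factor, had 63.5, 78.3 and 221 normalised reads as its lowest, median and highest SP2509 value, against 83.4, 46.1, 64.8 and 61.1 in vehicle (0.69 ± 0.37, limma adjusted p = 0.2495). Its high SP2509 values were those of replicates 4 and 5, the libraries with gland transcripts, and without them the log2 fold change was 0.19 (limma adjusted p = 0.673). Trp63, the master factor of basal keratinocytes and also one of the keratinocyte markers, had 1221 in SP2509 replicate 6 and 2221 to 3767 in replicates 1 to 5, against 1828, 2159, 1464 and 1982 in vehicle (0.46 ± 0.28, limma adjusted p = 0.295). Without replicate 6 all 14 factors had a positive value (median 0.34), and Trp63 (0.67) and Ovol1 (0.63) were called higher, at limma adjusted p-values of 0.0220 and 0.0113. Without replicates 4 and 5, 7 of the 14 were positive, the median was 0.0022 and 0 were called.

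Of 12 corepressors and partners of SNAI and ZEB factors, 0 were called in either direction with or without replicate 6, and the median was 0.00. Kdm1a, which encodes the target of SP2509, had 641, 745 and 848 normalised reads as its lowest, median and highest SP2509 value, against 721, 659, 823 and 745 in vehicle (0.01 ± 0.12, limma adjusted p = 0.958). Ctbp1, a corepressor of ZEB factors, and Sin3a, a corepressor scaffold, had the smallest p of the list, with log2 fold changes of 0.24 ± 0.11 and 0.28 ± 0.14 (limma adjusted p = 0.186 and 0.208).

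Of 22 epithelial junction and polarity genes, all 22 had a positive log2 fold change and 0 were called, with a median of 0.56 beside 0.02 over all genes. The number of positive values fell to 18 and the median to 0.33 when SP2509 replicates 4 and 5 were left out. Krt19 and Krt8, keratins of simple epithelia, had the smallest p, with log2 fold changes of 1.61 ± 0.58 and 2.94 ± 1.18 (limma adjusted p = 0.0948 and 0.131). Krt8 had 12.2, 61.3 and 1108 normalised reads as its lowest, median and highest SP2509 value, against 5.56, 50.7, 12.7 and 8.08 in vehicle. Replicates 4 and 5, which held the gland transcripts, carried its high values, and without them the log2 fold changes were 1.31 for Krt8 and 0.95 for Krt19 (limma adjusted p = 0.287 and 0.265). Without replicate 6, Cdh3 (P-cadherin of basal cells, 1.01), Epcam (an epithelial adhesion molecule, 1.55), Crb3 (a polarity protein, 0.89) and F11r (a tight junction protein, 0.32) were called higher, at limma adjusted p-values of 0.0067, 0.0479, 0.0377 and 0.0477. Epcam had 87.1 in SP2509 replicate 6 and 229 to 972 in replicates 1 to 5, against 174, 144, 146 and 137 in vehicle. Without replicates 4 and 5 its log2 fold change was 0.40 (limma adjusted p = 0.510).

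Of 20 mesenchymal marker genes, 1 was called higher and 1 lower, with 11 positive values and a median of 0.01. Tnc, the gene of tenascin-C, a matrix protein of wounds and tumour stroma, had 222, 418 and 478 normalised reads as its lowest, median and highest SP2509 value, against 46.4, 143, 182 and 270.3 in vehicle. Replicate 6, the lowest, lay within the vehicle range and the other 5 lay above it (1.496 ± 0.392, limma adjusted p = 0.0366, and 0.138 with the pairs merged). With 1 library left out, the Tnc call held only without SP2509 replicate 6 or without vehicle replicate 4. It was otherwise lost (limma adjusted p = 0.0572 to 0.0735). Without vehicle replicate 1, the lowest for Tnc, the log2 fold change was 0.99 (limma adjusted p = 0.0698). Col3a1, the gene of collagen III, had 1353, 1609 and 1816 in SP2509, against 2377, 4138, 2054 and 2092 in vehicle, without overlap (-0.67 ± 0.19, limma adjusted p = 0.0427, and 0.123 with the pairs merged). The Col3a1 call was lost when any 1 library other than SP2509 replicate 6 was left out (limma adjusted p = 0.0510 to 0.0969). Without vehicle replicate 2, the highest, its log2 fold change was -0.44 (limma adjusted p = 0.0577). Fap, a protease of activated fibroblasts, was lower without replicate 6 (-0.52, limma adjusted p = 0.0293). The 2 called genes went in opposite directions, and Col1a1 and Col1a2, which also stand in the fibroblast markers, were not called (-0.37 and -0.03).

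Of 16 other cadherins and catenins, 14 were tested (Cdh17 and Ctnna2 were not), and 1 was called higher and 0 lower, with a median of 0.27. Ctnnb1, the gene of beta-catenin, which links cadherins to the actin cytoskeleton and carries WNT signals, had 2155, 2583 and 3014 normalised reads as its lowest, median and highest SP2509 value, against 1723, 1600.1, 1709 and 1951 in vehicle. All 6 SP2509 libraries, replicate 6 included, were above all 4 vehicle libraries (0.56 ± 0.13, limma adjusted p = 0.0269, and 0.0976 with the pairs merged). Without replicate 6, Jup (plakoglobin, 0.88), Cdh3 and Ctnna1 (alpha-catenin, 0.29) were also called higher, at limma adjusted p-values of 0.0037, 0.0067 and 0.0337. In the same fit Cdh19, a cadherin of Schwann cells, and Cdh15, the muscle cadherin, were called lower (-1.12 and -0.72, limma adjusted p = 0.0183 and 0.0312). Cdh19 had 79.3, 134 and 188 in SP2509, against 247, 155, 273 and 347 in vehicle, and all 8 Schwann cell markers described above had negative values as well; their part in the result was not tested.

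Of 7 fibronectin receptor integrins, 1 was called higher and 0 lower, with a median of 0.05. Itgb1, the beta chain shared by most fibronectin receptors, had 1963, 2228 and 2454 normalised reads as its lowest, median and highest SP2509 value, against 1016, 1428, 1661 and 1673 in vehicle. The groups did not overlap (0.65 ± 0.15, limma adjusted p = 0.0235, and 0.0910 with the pairs merged). The call was also lost without SP2509 replicate 1 or without vehicle replicate 1 (limma adjusted p = 0.0516 and 0.0624). Itga5, the alpha chain of the classical fibronectin receptor, had a log2 fold change of -0.04 ± 0.13 (limma adjusted p = 0.881). Itgav, an alpha chain that pairs with Itgb1, was called higher without replicate 6 (0.35, limma adjusted p = 0.0463).

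Of 8 intermediate filament partners of vimentin, 6 were tested (Gfap and Nefm were not) and 0 were called, with a median of 0.67. Lmna, the gene of lamins A and C, had 5292, 6533 and 7977 normalised reads as its lowest, median and highest SP2509 value, against 4417, 5846, 3835 and 4924 in vehicle (0.47 ± 0.16, limma adjusted p = 0.0819). Des, the gene of muscle desmin, had 12761 to 41218 in SP2509, with its highest value in replicate 6, against 7194 to 14519 in vehicle (0.87 ± 0.31, limma adjusted p = 0.0877). Des followed the muscle markers, which were highest in the same library, and their part in the result was not tested. Without replicate 6 both were called higher (Lmna 0.53, Des 0.65, limma adjusted p = 0.0178 and 0.0360).

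**Figure D5:**
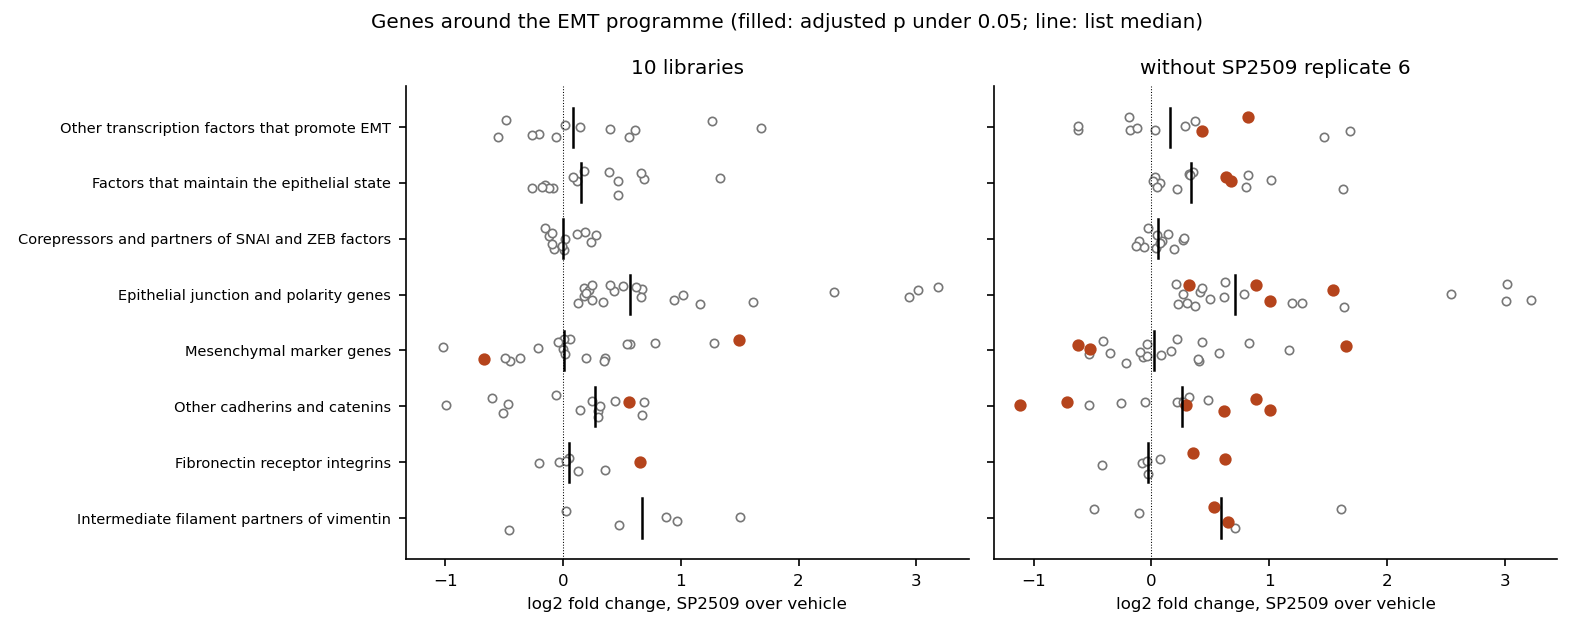
Log2 fold changes (SP2509 over vehicle) of the tested genes in 8 lists around the EMT programme, from limma on 10 libraries (left) and without SP2509 replicate 6 (right); each point is 1 gene, filled points have an adjusted p under 0.05 and vertical lines are list medians. All 22 epithelial junction and polarity genes lie right of 0 in both panels, and the filled points number 4 genes on the left.

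The plot of the lists shows the epithelial junction genes and the vimentin partners with the highest medians (0.56 and 0.67), and mesenchymal markers spread to both sides of 0.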

How the data were processed

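Tongue poly-A RNA was sequenced in 6 SP2509 and 4 vehicle libraries. HISAT2, featureCounts and mm10 are named, with no version or role, per the submitters' processing notes. The deposited values are a signal, each library's gene counts having been divided by a size factor. The labels do not describe this step, but 100% of the values lay within 0.01 of whole reads. How strand was treated in the counting is not given in the sources used here. Gene symbols, exons and coordinates came from GENCODE M21 (GRCm38), which gave a symbol to 27113 of 27151 genes.

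The test was limma 3.58.1 (R 4.3.3, intensity trend, robust empirical Bayes, two-sided) on log2(value + 1), for the genes that reached 10 normalised reads in 4 or more libraries, with no covariate. Whole reads recovered from the values entered edgeR 4.0.16 (quasi-likelihood) and DESeq2 1.42.0 as alternatives, beside other pseudocounts (0.5 and 5), filters, scalings, library weights, a replicate block, merged pairs and left-out libraries. The main limma fit, and not the alternatives, was tested on simulated data with 200 changed genes. The simulated libraries were independent, with no close pairs and no outlying library, so that check does not bear on calls that depend on these. The 10 genes and all lists were chosen with earlier results of these data known, so no set test and no p over a list was computed. All 10 genes are named whatever their values; of each list the called genes or otherwise the 2 with the smallest p are named, and genes called only without a library were added after their values were seen. Python 3.11.15 was used with pandas 2.3.3 and NumPy 2.4.6 for tables and matplotlib 3.10.9 for figures.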

Additional observations from a re-analysis of the deposited data

Results flagged for a closer look

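In 48 groups of 4 values (vehicle libraries or SP2509 units of the named genes), 4 held a value set far apart from the other 3 by Dixon's test, and chance gives about 1 in 20 groups. Col3a1 had 4138 normalised reads in vehicle replicate 2, against 2054 to 2377 in the other vehicle libraries. The call for Col3a1 is lost without that library, and likewise without any 1 other library except SP2509 replicate 6. Elf3 had 204 in the SP2509 unit of replicates 4 and 5, against 63.5 to 87.3 in the other SP2509 units. Krt8 had 1043 in the same unit, against 12.2 to 82.2, and 50.7 in vehicle replicate 2, against 5.56 to 12.7 in the other vehicle libraries. None of the 10 EMT genes had such a value in either group.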

How the results depend on the processing

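Over 24 alternatives for each of 24 named genes (576 values), 489 kept the direction and the side of the threshold, 54 lost a call, 27 gained one and 6 turned the sign, all in genes that were not called. Snai2 ran from -0.059 (without vehicle replicate 3) to 0.40 when 1 library was left out. Twist2 turned to 0.069 with quantile normalization and to 0.042 with the pairs merged and SP2509 replicate 6 left out, and ran from -0.34 to 0.12 when 1 library was left out. The number of EMT genes called was 1 in the 10-library fit, 0 without the intensity trend, 4 with library quality weights, 0 with merged pairs, 0 without SP2509 replicates 4 and 5, 2 with merged pairs and no SP2509 replicate 6, and 0 to 3 when 1 library was left out. Over all genes the count of 1555 became 1032 with no filter, 906 without the trend, 4159 with weights, 3006 with DESeq2, 0 with merged pairs, 375 without SP2509 replicates 4 and 5, and 278 to 3459 with 1 library left out, the lowest without vehicle replicate 1 and the highest without SP2509 replicate 6. Of the list genes 4 were called, 2 without the trend, 21 with weights, 18 with DESeq2, 0 with merged pairs, 0 without SP2509 replicates 4 and 5, and 0 to 20 with 1 library left out. The difference in the cadherin ratio ran from -1.03 to -0.58 with 1 library left out. With the replicate block the counts were 2 EMT genes, 8 list genes and 1971 genes in all. Same-numbered libraries share only a number: their deviations correlated at 0.05, -0.01, -0.13 and 0.15, and no vehicle library except replicate 4 correlated best with its own number. The fits that leave out SP2509 replicates 4 and 5, or replicate 6 with the pairs merged, were chosen after seeing the data. The causes were not tested. Snai1, Twist2 and Cdh2 rest on under 400 reads in each group, and counting error was not separated from the spread between libraries.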
